A study of Homo sapiens with 12 samples.

Results

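The cytoplasmic mRNA expression of 9 CC chemokine genes, CCL2, CCL3, CCL4, CCL5, CCL7, CCL8, CCL20, CCL26 and CCL28, was followed in U2OS cells in which DBP5, GLE1 or IPPK was knocked down. The 9 genes were chosen on results of these same 12 arrays, out of 27522 gene names on the array. Their differences between siRNAs are therefore given as a description, with no p-value for any of them. All probes with a RefSeq accession of a member were taken, which gave 10 probes: CCL4 had 2, and each of the others had 1.

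U2OS is a human osteosarcoma cell line. The cells received 20 nM of a control siRNA or of siRNA against DBP5, GLE1 or IPPK, with 48 h of culture according to the methods, and one-colour Agilent arrays then read their cytoplasmic RNA. The 12 arrays, 3 for each of the 4 siRNAs, came on 3 slides, with every siRNA once on a slide. DBP5 (an RNA helicase of the DEAD-box family), its activator GLE1 and inositol hexakisphosphate, the product of the kinase IPPK, act in mRNA export at the cytoplasmic side of the nuclear pore. All groups are transient transfections of 1 cell line. RNA of whole cells or nuclei was not on these arrays, so less synthesis, less export and faster decay of an mRNA cannot be told apart, and neither can fewer expressing cells and less mRNA per cell. The 3 comparisons with control use the same control arrays.

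CC chemokines are small secreted proteins that attract leukocytes through G protein-coupled receptors. CCL2, CCL7 and CCL8 attract monocytes, mainly through CCR2, and CCL3, CCL4 and CCL5 attract T cells and macrophages. CCL20 is the ligand of CCR6 on dendritic and Th17 cells, CCL26 (an eotaxin) binds CCR3 on eosinophils, and CCL28 binds CCR10 on lymphocytes of mucosal tissue. Several of the genes are induced by interleukin-1 and tumour necrosis factor through NF-kappaB and AP-1, CCL26 is induced by interleukin-4 and interleukin-13 through STAT6, and many chemokine mRNAs are short-lived and carry AU-rich elements. Osteosarcoma and other mesenchymal cells are known to secrete CCL2.

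The siRNA targets were lower in their own knock-downs. DDX19B, the gene of DBP5, read 1199.98, 1134 and 1137 on the control arrays and 76.0, 73.9 and 73.3 on the DBP5 siRNA arrays, and its paralog DDX19A also fell in those cells (log2 difference -4.22). In GLE1 knocked-down cells the GLE1 probe read 42.4, 28.9 and 26.4 against 313, 320.5 and 307 in control. In IPPK knocked-down cells the brighter IPPK probe read 123, 124 and 133 against 638, 691 and 708. The dimmer IPPK probe fell less, from a control mean of 273 to 136. The knock-downs also touched one another's targets: DDX19B fell by 1.03 on the log2 scale with GLE1 siRNA, DDX19A fell by 1.73 with IPPK siRNA, and IPPK fell by 1.25 with DBP5 siRNA. The IPPK probes disagree with GLE1 siRNA, where the brighter one fell by 0.28 and the dimmer one rose by 1.06.

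Of the 10 chemokine probes, 7 probes of 6 genes (CCL2, CCL3, CCL4, CCL20, CCL26 and CCL28) were well above background on all 12 arrays, by the flag that the scanner software gives each spot. CCL7 was well above background on 9 arrays and on no IPPK siRNA array. CCL5 and CCL8 were at background on every array, with normalized intensities of 3.36 to 6.48 and of 2.65 to 3.71, below the lowest signals called well above background (11.1 to 17.3 by array), so nothing is said of their changes. Values are normalized background-subtracted intensities, which can be compared between siRNAs for 1 probe but not between probes, since probes differ in brightness.

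**Figure D1:**
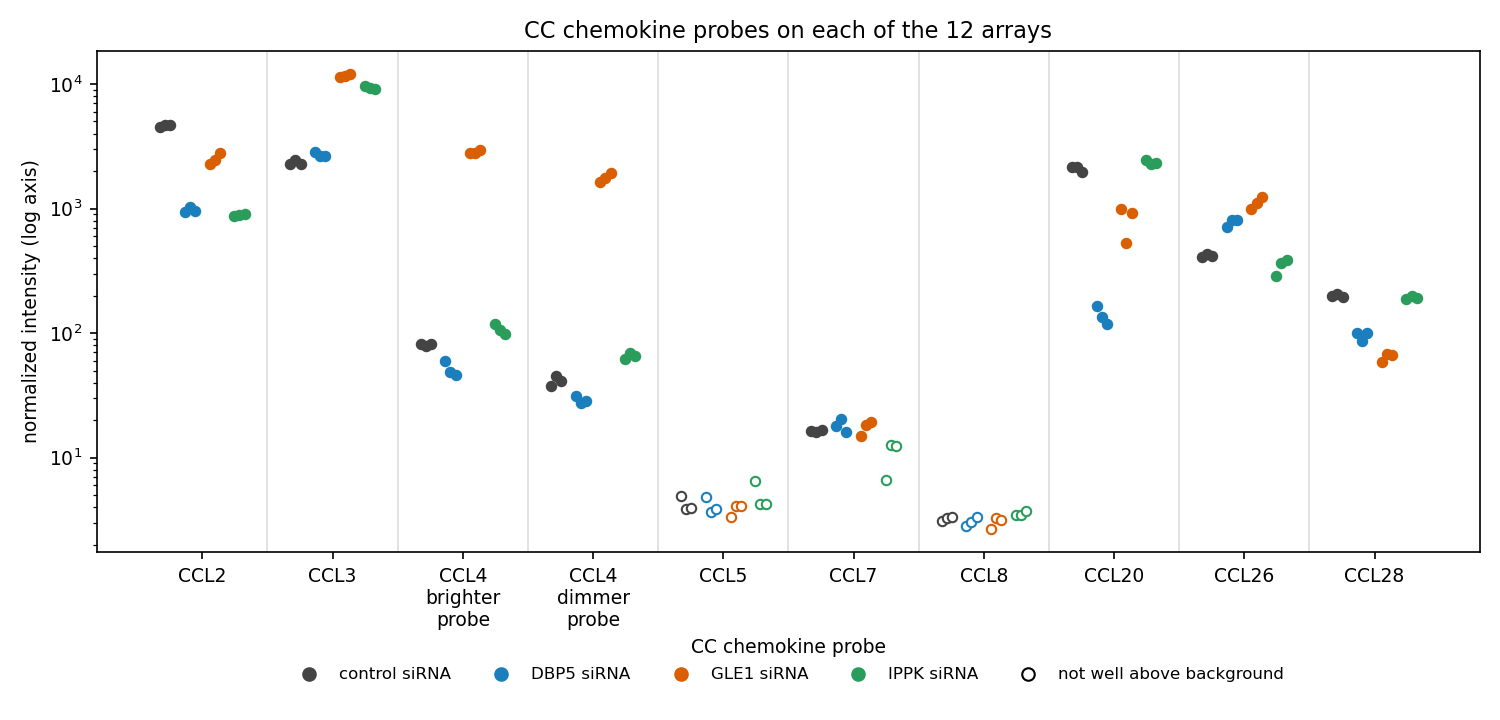
Normalized intensity (log axis) of each of the 10 CC chemokine probes on the 12 arrays; each point is 1 array, coloured by siRNA, with replicates 1 to 3 from left to right, and open points are arrays on which the probe was not well above background. The CCL4 probes stand apart on the GLE1 siRNA arrays (2787 to 2954 for the brighter probe), CCL20 is lowest on the DBP5 siRNA arrays (117 to 165), and CCL5 and CCL8 are open throughout.

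Genes were called different where limma gave an adjusted p under 0.05 for the brightest probe. After DBP5 knock-down, 4 of the 7 tested members were lower (CCL2, CCL4, CCL20 and CCL28), beside 27.5% of all 20821 genes tested, and 2 were higher (CCL3 and CCL26), beside 26.7%. After GLE1 knock-down, 3 were lower (CCL2, CCL20 and CCL28), beside 31.4% of all genes, and 3 were higher (CCL3, CCL4 and CCL26), beside 30.5%. After IPPK knock-down, 2 were lower (CCL2 and CCL7), beside 28% of all genes, and 2 were higher (CCL3 and CCL4), beside 27.2%. Since the members were chosen on results of these same arrays, nothing is read from the counts; CCL7 passed the filter only through the siRNAs in which it was well above background. The description that follows rests on the values on each array.

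CCL2, the monocyte attractant, was lower in all 3 knock-downs. Its probe, which is spotted 10 times on each array, read 4543, 4685 and 4701 on the control arrays, 931, 1025 and 962 with DBP5 siRNA, 2271, 2438 and 2773 with GLE1 siRNA, and 874, 887 and 899 with IPPK siRNA. No knock-down array came near the control arrays, and the GLE1 siRNA arrays stood between control and the other knock-downs. Relative to the control mean, 21.0% ± 1.03 of the CCL2 signal was left with DBP5 siRNA, 53.7% ± 5.51 with GLE1 siRNA and 19.1% ± 0.260 with IPPK siRNA (SD, n = 3 arrays each). DBP5 and IPPK knocked-down cells differed by only 0.13 ± 0.07 (SE) on the log2 scale, which was not called, although their arrays did not overlap. The repeated spots show the technical spread: within an array the coefficient of variation over the 10 CCL2 spots was 3.61% to 9.75%.

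CCL7 and CCL8, the other monocyte attractants, lie in the same gene cluster as CCL2. CCL7 was close to background, at 16.5, 16.2 and 16.5 on the control arrays, 17.9, 20.4 and 16.1 with DBP5 siRNA and 15.0, 18.1 and 19.4 with GLE1 siRNA, and these groups overlapped. After IPPK knock-down it read 6.56, 12.5 and 12.4, with none well above background, so that it was at least 1.02-fold lower than control, a bound that leaves almost no difference. Its call was lost when the background was not subtracted (log2 difference -0.06 in the processed values of the authors, against -0.70). The neighbours of CCL2 thus gave no measurable signal that followed it.

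CCL3, a ligand of CCR1, was higher in GLE1 and IPPK knocked-down cells. It read 2257, 2449.6 and 2286 in control, 2849, 2617 and 2643 with DBP5 siRNA, 11464, 11614 and 12120.2 with GLE1 siRNA, and 9673, 9301 and 9105 with IPPK siRNA. The mean was 5.03 ± 0.147 times the control mean with GLE1 siRNA and 4.02 ± 0.124 times with IPPK siRNA, but 1.16 ± 0.0544 times with DBP5 siRNA (SD, n = 3). The order was GLE1, IPPK, DBP5 and control, with no overlap between any neighbours in it; the step from control to DBP5 was small (log2 difference 0.21 ± 0.05, SE), and the paired test did not call it. CCL2 and CCL3 thus changed in opposite directions in GLE1 and IPPK knocked-down cells.

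CCL4, the gene next to CCL3, was high in GLE1 knocked-down cells. Its brighter probe read 81.9, 78.9 and 81.0 in control, 59.6, 48.5 and 45.8 with DBP5 siRNA, 2787, 2787 and 2954 with GLE1 siRNA, and 119, 106.5 and 97.6 with IPPK siRNA. The dimmer probe read 37.4, 45.0 and 41.4 in control, 31.4, 27.7 and 28.2 with DBP5 siRNA, 1634, 1772 and 1939 with GLE1 siRNA, and 62.4, 68.8 and 64.9 with IPPK siRNA. Both probes ranked the siRNAs alike, GLE1 far above IPPK, then control, then DBP5, with no overlap between groups. By these probes CCL4 was 35.3 ± 1.19 and 43.1 ± 3.70 times the control mean with GLE1 siRNA (SD, n = 3), while the IPPK siRNA arrays, on which CCL3 was high too, reached 1.33 ± 0.130 and 1.58 ± 0.0776 times. The size of the rise depends on the background, since the control signal is low: in the processed values of the authors, which follow intensities without background subtraction, the log2 differences were 4.30 and 4.24 in place of 5.14 and 5.43. For the dimmer probe the DBP5 difference was no longer called there (-0.13 against -0.50), nor with the paired test. For the brighter probe the DBP5 and IPPK differences were not called with the paired test after adjustment.

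**Figure D2:**
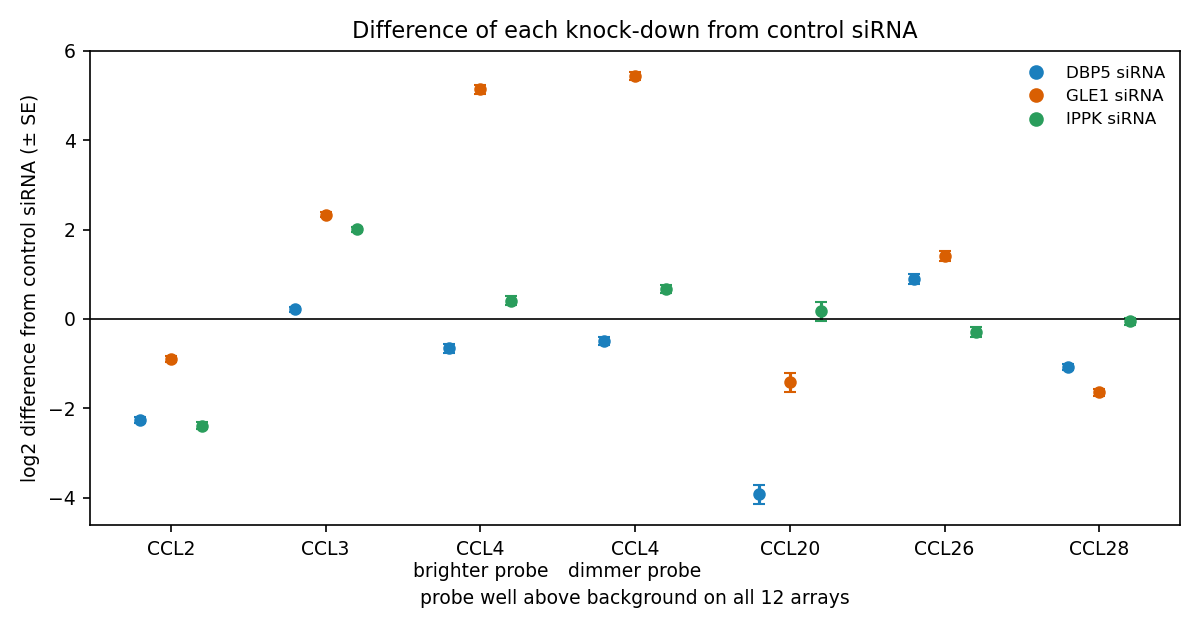
Log2 difference of each knock-down from control siRNA (vertical axis, limma estimate with its SE, 3 arrays per siRNA) for the 7 probes well above background on all 12 arrays. The 2 CCL4 probes reach 5.14 and 5.43 with GLE1 siRNA, CCL20 reaches -3.93 with DBP5 siRNA, and CCL20 and CCL28 stay near 0 with IPPK siRNA.

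CCL3 and CCL4 have near-identical gene copies, and a probe can bind the mRNA of a copy, so the source of their signal is uncertain. The brighter probe of CCL3L3 read 303, 315 and 302 in control, 348, 427 and 372 with DBP5 siRNA, 1491, 1586 and 1344 with GLE1 siRNA, and 1125, 1176 and 1122 with IPPK siRNA, in the order of CCL3. Its log2 differences from control were 0.31, 2.26 and 1.90 with DBP5, GLE1 and IPPK siRNA. No p-value is given for the copies, since they may share the signal of members chosen on these arrays. The dimmer CCL3L3 probe rose as much after GLE1 and IPPK knock-down (2.41 and 1.90) but fell by 0.32 with DBP5 siRNA. The brighter CCL4L2 probe read 41.0, 36.2 and 42.0 on the GLE1 siRNA arrays against 22.7, 23.3 and 27.2 in control, without overlap, though the difference of 0.71 was not called. It read 30.7, 19.7 and 20.3 with DBP5 siRNA and 41.8, 10.2 and 22.1 with IPPK siRNA, so 1 IPPK array was as high as the GLE1 arrays. The error behind the call was shared by all 4 siRNAs. The coefficient of variation was 64.5% with IPPK siRNA, against 10.1% in control and 7.87% with GLE1 siRNA. The dimmer CCL4L2 probe was well above background on all 3 GLE1 siRNA arrays (19.0, 20.0 and 22.8) and on only 1 of the other 9. How much of either signal comes from the copies is not known.

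**Figure D3:**
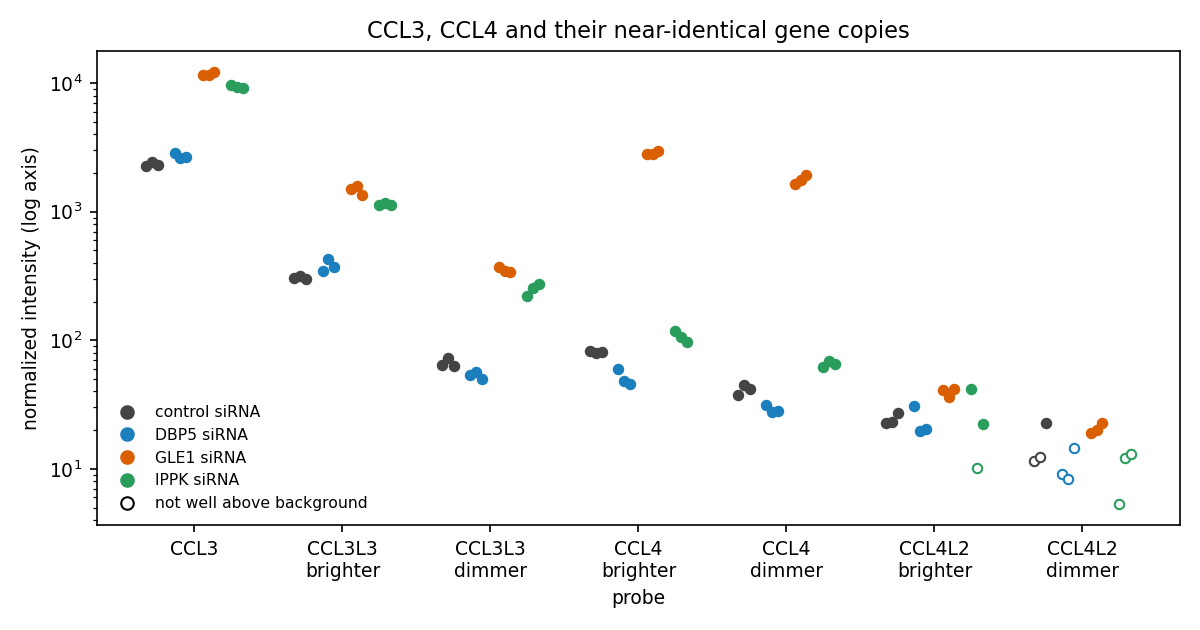
Normalized intensity (log axis) of the probes of CCL3, CCL4 and their near-identical copies CCL3L3 and CCL4L2 on the 12 arrays; points are arrays, replicates 1 to 3 from left to right, and open points were not well above background. The CCL3L3 probes order the siRNAs as CCL3 does on the GLE1 and IPPK siRNA arrays, and the brighter CCL4L2 probe reads 36.2 to 42.0 on the GLE1 siRNA arrays and 22.7 to 27.2 in control.

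CCL20, the ligand of CCR6, was lowest in DBP5 knocked-down cells. It read 2139, 2171 and 1969 in control, 165, 134 and 117 with DBP5 siRNA, 995, 526 and 919 with GLE1 siRNA, and 2469, 2295 and 2303 with IPPK siRNA. The share of the control mean that was left was 6.63% ± 1.16 with DBP5 siRNA and 38.9% ± 12.015 with GLE1 siRNA, and the IPPK siRNA arrays stood at 113% ± 4.69 (SD, n = 3). The IPPK arrays lay just above all control arrays, but the difference of 0.17 ± 0.21 (SE, log2) was not called. This error is shared by all 4 siRNAs. The coefficient of variation was 30.9% with GLE1 and 17.5% with DBP5 siRNA, but 5.18% in control and 4.16% with IPPK siRNA. GLE1 replicate 2 was lower than the other GLE1 arrays, and without it the log2 difference from control was -1.13 in place of -1.42; the paired test after adjustment did not call it. Between knock-downs CCL20 was 17.1-fold lower with DBP5 siRNA than with IPPK siRNA, whereas CCL2 was at 931 to 1025 and 874 to 899 in these cells.

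The promoters of CCL20, CCL3 and CCL3L3 are shown because CCL20 has the largest fall among the members and because CCL3 and its copy rose together. They come from a table of RefSeq promoters (GRCh38.p14), in which 9 promoters of 6 of the 9 members were found (CCL3, CCL7, CCL8, CCL20, CCL26 and CCL28; 3 of them of CCL3), each from 250 bases before to 50 after the start. Capitals mark matches, on either strand, to the kappaB consensus, to TGANTCA (the AP-1 motif) and to TATAAA. The CCL20 promoter lies at chr2:227813592-227813891 on the plus strand, the first CCL3 promoter at chr17:36090094-36090393 and the CCL3L3 promoter at chr17:36196709-36197008, both on the minus strand.
CCL20: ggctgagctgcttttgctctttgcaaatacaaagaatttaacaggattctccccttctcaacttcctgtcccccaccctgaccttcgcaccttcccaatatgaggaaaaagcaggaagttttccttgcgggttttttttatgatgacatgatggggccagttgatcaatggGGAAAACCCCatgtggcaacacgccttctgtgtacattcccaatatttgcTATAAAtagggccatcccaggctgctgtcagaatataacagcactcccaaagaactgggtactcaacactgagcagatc
CCL3: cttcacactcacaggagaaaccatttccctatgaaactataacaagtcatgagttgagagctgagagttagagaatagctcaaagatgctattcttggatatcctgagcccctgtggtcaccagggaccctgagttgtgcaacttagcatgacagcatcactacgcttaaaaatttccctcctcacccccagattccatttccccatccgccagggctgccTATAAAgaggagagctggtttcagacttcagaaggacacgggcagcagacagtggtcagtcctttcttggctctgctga
CCL3L3: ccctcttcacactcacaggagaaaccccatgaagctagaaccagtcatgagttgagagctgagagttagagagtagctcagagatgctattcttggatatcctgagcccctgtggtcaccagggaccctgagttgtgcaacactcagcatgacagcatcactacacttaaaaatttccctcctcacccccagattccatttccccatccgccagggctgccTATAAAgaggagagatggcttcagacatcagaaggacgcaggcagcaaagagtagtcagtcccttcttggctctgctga

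In the CCL20 promoter the first capitals are a match to the kappaB consensus, on the opposite strand, which begins 79 bases before the start, and the second are TATAAA, 29 bases before it. The CCL3 and CCL3L3 promoters shown each hold TATAAA 29 bases before the start and no other match, and the other 2 CCL3 promoters hold none of the 3 motifs. Of the further members, CCL7 and CCL8 hold TATAAA 30 bases before the start and CCL7 has a TGANTCA match 51 bases before it, while the promoters of CCL26 and CCL28 hold none of the 3 motifs. Among all 35116 promoters of this length, 11.3% hold the kappaB consensus, 7.71% TGANTCA and 11.5% TATAAA. A match is only a run of letters, and its absence here concerns only these windows.

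CCL26, the eotaxin that binds CCR3, was higher in DBP5 and GLE1 knocked-down cells. It read 408, 429.7 and 412 in control, 716, 807 and 812 with DBP5 siRNA, 998, 1115 and 1229 with GLE1 siRNA, and 286, 364 and 383 with IPPK siRNA. The mean was 1.87 ± 0.130 times control with DBP5 siRNA and 2.67 ± 0.277 times with GLE1 siRNA (SD, n = 3). All IPPK siRNA arrays were below all control arrays, at 82.7% ± 12.3 of the control mean. This difference of -0.29 ± 0.11 (SE, log2) was not called in the fit of all arrays. It was called lower with replicate number as a block (-0.29 as well), with scaling to the 75th percentile and with quantile normalization. The filter on all 12 arrays also called it, as did leaving out GLE1 replicate 1, GLE1 replicate 3 or IPPK replicate 3. Without IPPK replicate 1, its lowest array, the difference shrank to -0.16 and was not called, and the paired test did not call it either. Nothing is read from these calls, since the members were chosen on these arrays.

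CCL28, the mucosal chemokine that binds CCR10, was lower in DBP5 and GLE1 knocked-down cells. It read 200.2, 206 and 196 in control, 99.6, 86.4 and 99.6 with DBP5 siRNA, 59.1, 67.8 and 66.3 with GLE1 siRNA, and 189, 200.1 and 191 with IPPK siRNA. Relative to control, 47.4% ± 3.79 was left with DBP5 siRNA and 32.1% ± 2.32 with GLE1 siRNA (SD, n = 3), and the IPPK siRNA arrays overlapped the control arrays. In the processed values of the authors the GLE1 difference was -1.04 in place of -1.64.

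Side by side, the 6 members well above background on all arrays did not share 1 order of the siRNAs. CCL2 was highest in control, CCL3, CCL4 and CCL26 were highest with GLE1 siRNA, CCL20 was highest with IPPK siRNA, and CCL28 was highest in control, with IPPK overlapping it. With DBP5 and GLE1 siRNA, CCL26 was higher and CCL28 lower, each by more with GLE1 siRNA, while with IPPK siRNA all CCL26 arrays were below control and the CCL28 arrays overlapped it. Between knock-downs, limma called 6 of the 7 tested members different between DBP5 and GLE1 siRNA, beside 54.5% of all genes, 6 between DBP5 and IPPK siRNA, beside 48.8%, and 7 between GLE1 and IPPK siRNA, beside 60.1%. Nothing is read from these counts either, since the members were chosen on these arrays and CCL7, in the last 2 counts, was at background with IPPK siRNA. The member not called between DBP5 and IPPK siRNA was CCL2, and between DBP5 and GLE1 siRNA it was CCL7.

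The other CC ligands served as a list of their own, of which 17 of 19 genes had a probe and 9 were tested. After DBP5 knock-down 2 fell and 1 rose, with GLE1 siRNA 1 fell and 4 rose, and with IPPK siRNA 1 fell and 2 rose. Over all genes tested, 27.5%, 31.4% and 28% were called lower and 26.7%, 30.5% and 27.2% higher. The median log2 differences of the list were 0.01, 0.27 and -0.02, beside -0.02, 0.01 and -0.03 over all genes tested. Every later list and marker set is to be read beside these shares and medians of all genes. The lists were written with earlier results of these arrays known, so their counts and adjusted p are a description. CCL27, a CCR10 ligand like CCL28, fell in all 3 knock-downs, from 837, 946 and 825 in control to 254, 261 and 270.5 with DBP5 siRNA, 116, 116 and 103 with GLE1 siRNA and 213, 243 and 254 with IPPK siRNA. Its log2 differences were -1.73 (adjusted p = 6.14e-08), -2.96 (9.17e-10) and -1.88 (2.67e-08), each lower in 3 of 3 arrays, and for GLE1 -2.20 in the processed values of the authors. CCL24, an eotaxin like CCL26, was almost level, with a log2 difference of -0.17 with DBP5 siRNA (adjusted p = 0.0229, and 0.00654 to 0.112 over the alternatives) and none called after the others.

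CCL19 was dim (22.6 to 42.4 on all arrays) and its calls were fragile. Its log2 differences were 0.45 with GLE1 siRNA (adjusted p = 0.031) and 0.42 with IPPK siRNA (0.044), and they passed the threshold under 13 and 7 of 23 alternatives. The second CCL19 probe was not higher (-0.11, adjusted p = 0.802, and -0.33, adjusted p = 0.424). CCL15 and CCL16, which belong to the same gene cluster as CCL3 and CCL4, rose far less with GLE1 siRNA and did not rise with IPPK siRNA. On the GLE1 siRNA arrays CCL16 read 1327, 1299.7 and 1298 against 1125, 1029 and 1108 in control (0.27, adjusted p = 0.00311). CCL15 read 175, 225 and 189 there against 164, 166 and 172 (0.23, adjusted p = 0.0383). The call of CCL15 passed under 11 of 23 alternatives (adjusted p 0.00903 to 0.230), that of CCL16 under all 23. The values of CCL16 are those of its brighter probe, and its second probe was well above background on no array. These 2 genes were picked for their position after their values were seen.

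Receptors were mostly at background. Of the 14 CC chemokine receptors and atypical receptors, 7 were tested; CCR1, CCR2 and CCR3, which bind most of the members, and CCR8 and CCR9 were well above background on no array. After DBP5 knock-down 3 receptors fell and 2 rose, with GLE1 siRNA 2 fell and 2 rose, and with IPPK siRNA 3 fell and 2 rose, with median log2 differences of 0.08, 0.06 and -0.19. CCRL2, an atypical receptor that binds chemerin, fell from 618, 664 and 636 to 328, 337 and 316 with DBP5 siRNA (-0.97, adjusted p = 3.55e-07) and to 369, 391 and 388 with IPPK siRNA (-0.74, adjusted p = 2.17e-06), and read 623, 670 and 714 with GLE1 siRNA. The second CCRL2 probe was not called with IPPK siRNA (-0.40, adjusted p = 0.148). CCR6, the receptor of CCL20, fell by 0.93 on the log2 scale with GLE1 siRNA (adjusted p = 2.69e-06), from 371, 355 and 355 to 197, 173 and 196, by 0.50 with DBP5 siRNA, and by 0.24 with IPPK siRNA (322, 296 and 298), where CCL20 was not lower.

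CCR10, the receptor of CCL28 and CCL27, rose where CCL28 was low: from 549, 652 and 584 to 825, 819 and 888 with DBP5 siRNA (0.51, adjusted p = 0.000108) and to 876, 916 and 840 with GLE1 siRNA (0.56, adjusted p = 3.56e-05). It also rose slightly with IPPK siRNA (0.19, adjusted p = 0.0419), where CCL28 was level. CCR7, the lymph node homing receptor, rose with IPPK siRNA from 30.2, 26.6 and 30.0 to 62.3, 77.7 and 76.8 (1.32, adjusted p = 2.86e-05), although by only 0.50 in the processed values of the authors. Its fall with DBP5 siRNA (-0.52, adjusted p = 0.0129, and 0.00237 to 0.566 over the alternatives) and those of the scavenger ACKR4 with GLE1 siRNA (-0.47, adjusted p = 0.0422) and IPPK knock-down (-0.51, adjusted p = 0.0334) were at the edge of detection. With replicate number as a block the adjusted p of ACKR4 with GLE1 siRNA was 0.0608, and over all alternatives it ran from 0.0202 to 0.452. With IPPK siRNA it ran from 0.00967 to 0.514 and passed under 12 of 22 alternatives.

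IL1A, IL1B and TNF, 3 of the cytokines that induce these chemokines, were lower with DBP5 and IPPK siRNA. IL1A, a form of interleukin-1, read 366, 402 and 415 in control, 69.8, 65.4 and 65.0 with DBP5 siRNA, 274, 317 and 319 with GLE1 siRNA, and 60.2, 71.5 and 70.4 with IPPK siRNA. TNF read 139, 141 and 141 in control, 25.0, 25.6 and 24.9 with DBP5 siRNA, 87.8, 89.5 and 92.7 with GLE1 siRNA, and 25.0, 27.7 and 21.1 with IPPK siRNA, the first of these not well above background. IL1A fell by 2.56 on the log2 scale with DBP5 siRNA (adjusted p = 8.2e-09) and by 2.55 with IPPK siRNA (5.82e-09), and TNF fell by 2.52 with IPPK siRNA (4.8e-09), each in 3 of 3 arrays. IL1B fell from 68.6, 79.5 and 71.8 to below the background limit with DBP5 and IPPK siRNA, where it was at least 6.1-fold and at least 4.54-fold lower, and to 18.0, 19.6 and 17.3 with GLE1 siRNA (-2.00, adjusted p = 1.67e-07), the last of these not well above background. For these dim probes the falls were smaller without background subtraction: in the processed values of the authors IL1A was at -1.78 and -1.75, TNF with IPPK siRNA at -1.20, and IL1B at -0.89, -0.68 and -0.91 for DBP5, GLE1 and IPPK.

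Of the whole list of 25 inducing cytokines and their receptors, 23 were tested (not IFNB1 and TLR2, well above background on no array). After DBP5 knock-down 7 fell and 8 rose, with GLE1 siRNA 7 fell and 9 rose, and with IPPK siRNA 7 fell and 6 rose, with medians of 0.01, 0.13 and 0.01. IL13RA1, a chain of the receptor for interleukin-13, rose in all 3 knock-downs, from 775, 893 and 826 to 5431, 4927 and 4941 with DBP5 siRNA (2.62, adjusted p = 2.45e-09), to 7874, 8464 and 8004 with GLE1 siRNA (3.29, adjusted p = 2.72e-10) and to 4186, 4581 and 4581 with IPPK siRNA (2.42), and its second probe rose by less (1.15, 1.51 and 0.91). CCL26, which interleukin-13 induces, was higher in only the first 2 of these. IL1RAP, the accessory chain of the interleukin-1 receptor, fell with GLE1 siRNA from 961, 995 and 1012 to 221, 206 and 210.1 (-2.22, adjusted p = 1.37e-09), whereas its second, dimmer probe rose there by 0.59, so the probes of IL1RAP disagree.

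All 14 NF-kappaB subunits and regulators were tested: with DBP5 siRNA 8 fell and 1 rose, with GLE1 siRNA 3 fell and 6 rose, and with IPPK siRNA 6 fell and 5 rose, with medians of -0.37, 0.11 and 0.00. Of all genes tested, 27.5%, 31.4% and 28% fell and 26.7%, 30.5% and 27.2% rose in these comparisons. TNFAIP3, a feedback inhibitor that NF-kappaB itself induces, fell with DBP5 siRNA (865, 843 and 901 to 429, 361 and 444; -1.08, adjusted p = 9.79e-07) and rose with GLE1 siRNA (1407, 1295 and 1392; 0.65, adjusted p = 2.92e-05). BCL3, a nuclear partner of the p50 and p52 subunits, rose with GLE1 siRNA from 9595, 8829 and 9353 to 19505, 17119.5 and 16350 (0.93, adjusted p = 5.12e-07), while the atypical IkappaB protein NFKBIZ fell there (-1.17, adjusted p = 7.49e-09). The subunit REL fell with DBP5 siRNA (-0.58, adjusted p = 0.00137) and the kinase CHUK rose (0.54, adjusted p = 4.79e-05). After IPPK knock-down the inhibitors NFKBIB and NFKBIE fell (-0.80, adjusted p = 3.13e-05, and -0.73, adjusted p = 1.06e-06) and NFKB1 rose (0.45, adjusted p = 3.81e-05). The second NFKBIB probe did not fall there (0.08, adjusted p = 0.306), so the probes of NFKBIB disagree.

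Among the 17 other transcription factors of chemokine genes, 8 fell and 3 rose with DBP5 siRNA, 9 fell and 7 rose with GLE1 siRNA, and 3 fell and 3 rose with IPPK siRNA (medians -0.07, -0.20 and -0.13). JUN, a subunit of AP-1, rose in all 3 knock-downs, from 2170.0, 2141 and 1849.8 in control to 3133, 2474 and 2519 with DBP5 siRNA (0.39, adjusted p = 0.00467), 6744, 6540.5 and 6717 with GLE1 siRNA (1.70, adjusted p = 8.12e-08) and 5137, 4742 and 4774 with IPPK siRNA (1.25, adjusted p = 1.27e-06). ATF3, a stress-induced factor, rose with GLE1 siRNA from 6714, 6701 and 6509 to 15493, 15245 and 15750.2 (1.22, adjusted p = 1.09e-08). FOS, the partner of JUN, fell in all 3 knock-downs (-0.61, -1.04 and -0.71; highest adjusted p = 2.36e-05). STAT2 and CEBPB fell with DBP5 siRNA (-0.85, adjusted p = 1.52e-07, and -0.72, adjusted p = 7.09e-06), and IRF3 fell with IPPK siRNA (-0.43, adjusted p = 0.0021), where its second probe was not called (-0.25, adjusted p = 0.216).

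Of 11 factors that bind or degrade AU-rich and chemokine mRNAs, 4 fell and 4 rose with DBP5 siRNA, 4 fell and 6 rose with GLE1 siRNA, and 3 fell and 3 rose with IPPK siRNA (medians 0.13, 0.31 and -0.04). The nuclease ZC3H12A, first described as a protein that CCL2 induces, fell in all 3 knock-downs, from 1947, 1753 and 2011 to 798, 794 and 842 (DBP5), 1020.3, 919 and 1010.2 (GLE1) and 824, 718 and 731 (IPPK), with a highest adjusted p of 1.1e-06. The decay factor ZFP36 fell as well (-0.73, -0.95 and -0.47; highest adjusted p = 0.000114). HNRNPD fell with GLE1 siRNA (-0.70, adjusted p = 4.41e-07), but its second probe rose there (0.23, adjusted p = 0.0235). RC3H1 rose with IPPK siRNA (0.57, adjusted p = 9.3e-05), but its second probe did not (-0.11, adjusted p = 0.606). KHSRP rose with DBP5 siRNA (0.67, adjusted p = 0.015), and so did its second probe (0.69, adjusted p = 0.00969), but for the brighter probe replicate 3 read 31935 against 61780 and 58612 for the others and 29693 to 31744 in control. Without DBP5 replicate 1 its adjusted p was 0.0592 and without DBP5 replicate 2 it was 0.061, within 8.42e-07 to 0.223 over all alternatives.

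Proteases that trim CC chemokines formed the last list, with 6 genes. After DBP5 knock-down 1 fell and 4 rose, with GLE1 siRNA none fell and 4 rose, and with IPPK siRNA 2 fell and 4 rose (medians 0.42, 0.87 and 0.38). These counts stand beside 27.5%, 31.4% and 28% of all genes called lower and 26.7%, 30.5% and 27.2% called higher. The medians of all genes were -0.02, 0.01 and -0.03. MMP3, a stromelysin, rose with IPPK siRNA from 41602, 39905.5 and 36333 to 152002, 128066 and 124282 (1.78, adjusted p = 1.13e-06) and less with DBP5 siRNA (0.49, adjusted p = 0.00905, and 0.00176 to 0.115 over the alternatives). The collagenase MMP13 fell where IL1A and TNF fell most but rose with GLE1 siRNA: it read 58.4, 63.2 and 60.0 in control, 18.4, 17.2 and 21.8 with DBP5 siRNA (-1.67, adjusted p = 9.8e-06), 97.7, 117 and 133 with GLE1 siRNA (0.93, adjusted p = 0.000539), and 10.1, 15.5 and 14.3 with IPPK siRNA, where only 1 of 3 arrays was well above background and no size is given for the fall. In the processed values of the authors MMP13 was at -0.63 for DBP5. Over the alternatives its rise with GLE1 siRNA ran from 0.49 to 1.04. MMP2 and the dipeptidase DPP4 rose with GLE1 siRNA (1.23, adjusted p = 4.31e-06, and 1.04, adjusted p = 5.96e-06), MMP14 rose with DBP5 siRNA (0.58, adjusted p = 0.00177), and MMP1 rose with IPPK siRNA (1.01, adjusted p = 9.77e-05).

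**Figure D4:**
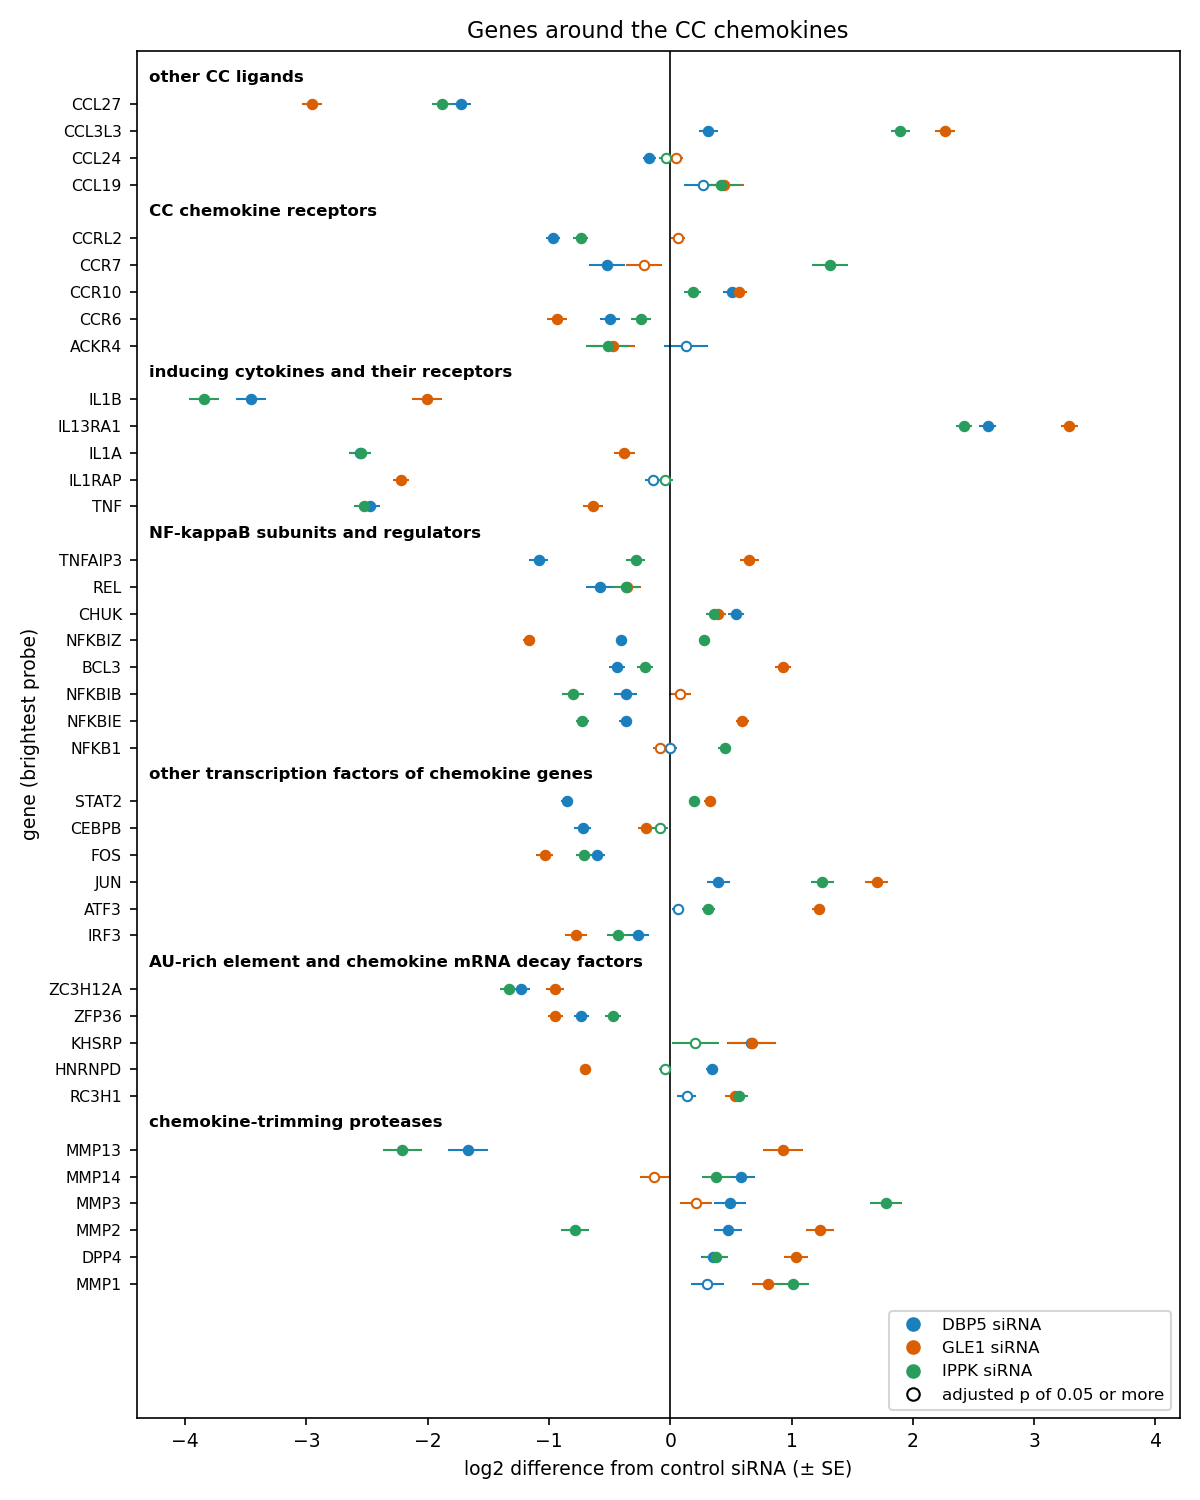
Log2 difference from control siRNA (horizontal axis, limma estimate with its SE, brightest probe, 3 arrays per siRNA) for genes of the 7 lists; open points had an adjusted p of 0.05 or more. IL1A and TNF lie near -2.5 with DBP5 and IPPK siRNA and closer to 0 with GLE1 siRNA, IL13RA1 lies at 2.42 to 3.29 with all 3, and TNFAIP3 lies on either side of 0.

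For each member well above background throughout, the 3 genes with the most similar pattern were taken by Pearson's r over the 12 arrays, among 14981 other named genes well above background on all arrays. This is a description: the arrays fall into 4 groups of 3, and with so many genes searched high values of r are found for most patterns. CCL2 was most like LTB (lymphotoxin beta, a member of the TNF family; r = 0.997), MARCO (a macrophage scavenger receptor; 0.995) and OLAH (0.993). LTB had group means of 402, 63.1, 185 and 58.0 in control, DBP5, GLE1 and IPPK siRNA. CCL3 was most like PARD6B (a cell polarity protein; 0.998), FBXO30 (0.994) and SAMTOR (0.993), and PARD6B had means of 402, 447, 1524 and 1349.

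CCL4 was most like ZP1 (0.992), DUSP1 (a phosphatase of stress-activated kinases; 0.991) and LINC01793 (0.990). DUSP1 had means of 2310.2, 1873, 6962 and 2787. CCL20 was most like TMEM41A (0.992), ATF4 (the transcription factor of the integrated stress response; 0.991) and PPP3CB (a calcineurin catalytic subunit; 0.988), and PPP3CB had means of 3148, 1351, 2582 and 3564. CCL26 was most like CYP27C1 (0.996), LOXL4 (a collagen-crosslinking oxidase; 0.990) and ATOSB (0.989), and LOXL4 had means of 976, 1727, 2639.7 and 759.9. CCL28 was most like NGDN (0.992), CENPQ (a kinetochore protein; 0.992) and ESCO2 (a cohesin acetyltransferase; 0.991), and ESCO2 had means of 3003, 879.8, 422 and 2362.

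Since chemokines are best known from leukocytes, markers of other cell types were checked. In control cells all 8 osteoblast-like or mesenchymal markers exceeded background on every array; VIM was the brightest (group means 238051, 293487, 272901 and 245531 with control, DBP5, GLE1 and IPPK siRNA), and COL1A2 was near background. Of these 8 genes, 2 fell and 3 rose with DBP5 siRNA, 1 fell and 3 rose with GLE1 siRNA, and 4 fell and 1 rose with IPPK siRNA (medians 0.10, 0.14 and -0.34). COL1A2 was well above background on no IPPK siRNA array, and with its bound in place of its value the IPPK median was -0.18. COL1A1 went from a mean of 6122 in control to 1546 with IPPK siRNA, and CD44 from 4889.5 to 9741. Of 11 leukocyte markers with a probe, 10 were well above background on all control arrays and none of the 11 was at background on all 3. A signal of these probes is therefore not read as a sign of leukocytes, and its source was not tested. CD79A was the brightest (control mean 2973), while the defining markers PTPRC (43.96 to 84.9 in control), CD2 and CD3E were dim. MS4A1 was not well above background on most arrays. The summed signal of the leukocyte list was 6349, 6145 and 6139 in control, 5259, 4471 and 4467 with DBP5 siRNA, 6093, 6454 and 7097 with GLE1 siRNA, and 5939, 4919 and 4872 with IPPK siRNA. A sum weighs bright probes most: CD79A and CD3D make up most of it, the lower DBP5 sum is mostly CD3D (group means 1629.99 in control and 336 with DBP5 siRNA), and the median log2 difference of the list with DBP5 siRNA was -0.05. Its part in the chemokine levels was not tested.

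The 4 epithelial markers summed to 12059.9, 10889 and 13855 in control, 11179.7, 12209 and 13099 with DBP5 siRNA, 12227, 12124 and 12206.5 with GLE1 siRNA, and 6575, 6406 and 6583 with IPPK siRNA, with KRT8 the brightest. The sum mostly follows the brightest KRT8 probe (group means 11424 in control and 6019 with IPPK siRNA). Of the other KRT8 probes, the second changed little (4769.6 and 4360.3) and the third was also lower (262 and 117). Of the 4 genes, 3 (KRT8, EPCAM and KRT19) fell and 1 rose with IPPK siRNA, with a median log2 difference of -0.71. With GLE1 siRNA none fell and 2 rose (median 0.42), and with DBP5 siRNA 2 fell and 1 rose (median -0.10). The 3 endothelial markers summed to 249, 279.6 and 257 in control, 227, 231 and 179 with DBP5 siRNA, 301, 337 and 265 with GLE1 siRNA, and 218, 200.5 and 180.2 with IPPK siRNA; PECAM1 was near background. Of the 3 endothelial genes, 1 fell with DBP5 siRNA, 1 rose with GLE1 siRNA and 2 fell with IPPK siRNA (medians -0.26, 0.54 and -0.69). The part of these cell types was not tested either.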

How the data were processed

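Cytoplasmic RNA of 12 U2OS cultures was hybridised to one-colour Agilent arrays with 43118 gene spots. The authors deposited scanner tables with, per spot, a background-subtracted intensity on a linear scale, the median intensities of spot and local background, and flags, and also a table of log2 values. The deposited log2 values (LOESS-normalized according to the methods) followed the median intensity without background subtraction (r at least 0.9998).

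Control spots and 169 to 358 outlier spots per array were dropped, and saturation marked 0 spots. The log2 of the background-subtracted intensity was averaged over the spots of a probe and normalized by cyclic loess. A probe was well above background on an array where at least 50% of its spots were flagged so. Of 34127 probes, 25878 were so on all 3 arrays of at least 1 siRNA and were fitted, with 1 mean per siRNA over all 12 arrays (limma 3.58.1, R 4.3.3, two-sided, Benjamini-Hochberg adjustment per contrast, threshold 0.05). Lists and shares of all genes use the brightest probe of a gene. Probes were named through RefSeq accessions. Precision is limited by 3 arrays per siRNA and, for dim probes, by how far the signal exceeds background. The fit was tested on simulated data. Figures were drawn with matplotlib 3.10.9.

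Replicate numbers mark the slides. Deviations from the group means correlated across probes at 0.309 to 0.520 (median 0.405) in the 18 same-numbered pairs of arrays of different siRNAs and at -0.327 to -0.008 (median -0.213) in the 36 others, so the numbers pair the arrays, and a fit with replicate number as a block was run beside the other.

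The members and lists were chosen with earlier results of these data known. The named genes are the members, the siRNA targets and DDX19A, the 3 genes of each list and comparison with the largest difference past the threshold, and the 3 genes most like each member; not every gene that meets this rule is printed. Other genes named were chosen after their values were seen. The alternatives changed the normalization (quantile, or scaling of each array to its 75th percentile), the background (normexp with offset 50 on the median signal, since the tables hold no mean), the values (deposited log2), the filter (none, or all 12 arrays), the probes (1 per gene), the arrays fitted (the 6 of a comparison, or 1 array fewer) and the test (the replicate block, or a paired t-test). The methods name a paired t-test under statistics but do not give it for the arrays. The reference files supplied held no protein sequences, so none is printed.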

Additional observations from a re-analysis of the deposited data

How the results depend on the processing

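Signal over background limits the dim probes most. Over the 23 alternatives, the 8 fitted chemokine probes gave 546 log2 differences from control, of which 546 kept their sign, 508 stayed within 1 SD of the replicates and 38 moved by more, chiefly where the background was not subtracted or was replaced by normexp; 21 changed their call. The fold of CCL4 after GLE1 knock-down, the call of CCL7 and the call of CCL26 after IPPK knock-down depend on these choices. The adjusted paired test did not call CCL3 and CCL4 (both probes) for DBP5, CCL4 (brighter probe) and CCL7 for IPPK, and CCL20 for GLE1; without adjustment it still did not call CCL3 and the dimmer CCL4 probe for DBP5 or CCL7 for IPPK, and it called CCL28 lower for IPPK. Of 63 differences of list genes chosen by the naming rule, 46 stayed past the threshold under all alternatives that gave a value and 9 more were lost only under the adjusted paired test. These 9 were CCL3L3, CCR10, REL, CHUK, FOS, ZFP36 and MMP14 for DBP5, and IRF3 and RC3H1 for IPPK. CCL7, IL1B, TNF, MMP13 and ACKR4 have no value with the filter on all 12 arrays, and neither has the dimmer CCL4 probe with 1 probe per gene.

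With replicate number as a block, 7, 7 and 6 chemokine probes were called for DBP5, GLE1 and IPPK against control (7, 7 and 5 without the block). Over all 25878 probes fitted, the block gave 14957, 17021 and 15356 calls (14066, 16052 and 14235 without it), so calls rose in general. The paired t-test, with arrays matched on replicate number and p adjusted, has only 3 pairs. It called 6213 probes for DBP5 against control in place of 14066, and 9298 for IPPK against control in place of 14235. Between knock-downs it called 6232 for DBP5 and GLE1 in place of 14090, and 4730 for DBP5 and IPPK in place of 12626. Of the chemokine probes it called 4 and 3 for DBP5 and IPPK against control, in place of 7 and 5. For DBP5 against control, that test called 1 other CC ligand (3), 1 receptor (5), 8 inducing cytokines and receptors (15), 5 NF-kappaB genes (9), 2 other transcription factors (11), 4 decay factors (8) and 1 protease (5), with the count of the limma fit in parentheses. For GLE1 it called 2 receptors (4), 9 transcription factors (16) and 5 decay factors (10), and for IPPK 3 receptors (5) and 5 NF-kappaB genes (11). Without adjustment the paired test called 5 transcription factors and 2 proteases for DBP5, 2 receptors for GLE1 and 3 for IPPK.

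The receptors, most of them dim, varied further, and the cause was not tested. Normexp gave 3 called receptors for DBP5 and 3 for IPPK, the processed values of the authors 3 for IPPK, and the fit of only the 6 arrays compared 3 for IPPK. Leaving out 1 array at a time gave 3 to 5 receptors for DBP5 (3 without DBP5 replicate 2) and 2 to 5 for IPPK (2 without control replicate 1 or IPPK replicate 2, 3 without control replicate 2 or 3 or IPPK replicate 1 or 3). Scaling to the 75th percentile called 3 other CC ligands for GLE1 in place of 5, and leaving out 1 array gave 3 to 6 (3 without control replicate 2).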

Other observations

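Among the leukocyte markers, CSF1R, the receptor of colony-stimulating factor 1 on macrophages, was highest with GLE1 siRNA, followed by control, DBP5 and IPPK siRNA. It read 313, 432 and 363 in control, 117, 132 and 124 with DBP5 siRNA, 692, 901 and 815 with GLE1 siRNA, and 61.3, 68.9 and 71.4 with IPPK siRNA (log2 differences -1.56, 1.12 and -2.45; highest adjusted p = 1.98e-05). CD3D, a chain of the T cell receptor complex, fell from 1654, 1728 and 1508 to 402, 324 and 283 with DBP5 siRNA, 678, 714 and 759.8 with GLE1 siRNA, and 476, 475 and 422 with IPPK siRNA, with a highest adjusted p of 6.63e-06, whereas CD3E stayed at 36 or less on all arrays. CDH1, the epithelial cadherin, was well above background on no control array and read 83.7, 123 and 129 with GLE1 siRNA, at least 8.42-fold higher. It was also higher with DBP5 siRNA (19.0, 22.0 and 23.5; at least 1.64-fold) and with IPPK siRNA (22.2, 27.7 and 33.5, the first not well above background). These 4 genes were singled out after their values were seen. By group means, MMP13, KRT19 and VWF ordered the siRNAs as CSF1R did.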
